A study of Mus musculus with 12 samples.

Results

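The Gimap genes are 8 neighbouring genes of mouse chromosome 6 that encode GTPases of lymphocytes, and they were followed here across T cell lymphomas and DN3 thymocytes with and without TCF-1. The members were chosen by name, as every Gimap symbol of the platform annotation, and each was to be read from the row with the highest mean signal over all arrays. Each of the 8 has a single row, so that mean decided nothing, and the 8 stand among 19938 genes in all. The family was put forward with the higher signal of Gimap4 in TCF-1-deficient cells and in lymphomas already known. Gimap4 is therefore described with no test, and the values of the other members are the ones tested.

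The arrays comprise 6 of T cell lymphoma cells sorted from the thymus of TCF-1 KO mice aged 12 to 40 weeks, 3 of DN3 thymocytes from TCF-1 KO mice aged 8 to 12 weeks, and 3 of DN3 thymocytes from wild-type mice of that same age. All mice carry the strain label C57/BL6, and the labels name neither the TCF-1 allele nor the sex or relation of the mice. TCF-1 is a transcription factor of early T cells, and DN3 thymocytes are immature cells that rearrange the T cell receptor beta gene. Lymphomas and DN3 cells differ in age and in the cells sorted as well as in disease, and the effects of these cannot be told apart.

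GIMAP proteins share a GTP-binding domain and sit on the membranes of cell organelles, several through a membrane anchor near the end of the protein. They are known mainly for keeping T and B cells alive. Loss of Gimap5 leaves rats and mice short of lymphocytes, and loss of Gimap1 removes mature T and B cells in mice. Some members have been reported to bind proteins of the Bcl-2 family, which set the threshold for cell death. As thymocytes mature, the levels of several of these genes are known to change.

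In the order of the RefSeq table of GRCm38.p6 the genes run Gimap8, Gimap9, Gimap4, Gimap6, Gimap7, Gimap1, Gimap5 and Gimap3, with only a pseudogene (Gm44262) and a long non-coding RNA (Gm46958) listed between them. The annotated span of Gm46958 covers the start of Gimap9. All 8 matched a promoter entry of RefSeq, and Gimap8 has an alternative start, which gives 9 windows of 300 bases. The windows of 4 genes are shown because the results turn on them: Gimap4 with the largest difference, Gimap9 with the steadiest rise, Gimap7 as the other holder of the motif searched, and Gimap1, which was not called in any comparison. Each runs 5′ to 3′ on the gene's own strand, from 250 bases before the annotated start to 50 after it. Capitals mark the letters CTTTGA or their reverse complement, the core of the motif that TCF-1 and its relatives bind. The windows lie at chr6:48684328-48684627 (plus strand) for Gimap4, chr6:48675885-48676184 (plus strand) for Gimap9, chr6:48718371-48718670 (plus strand) for Gimap7 and chr6:48738797-48739096 (plus strand) for Gimap1, all in GRCm38.p6.
Gimap4: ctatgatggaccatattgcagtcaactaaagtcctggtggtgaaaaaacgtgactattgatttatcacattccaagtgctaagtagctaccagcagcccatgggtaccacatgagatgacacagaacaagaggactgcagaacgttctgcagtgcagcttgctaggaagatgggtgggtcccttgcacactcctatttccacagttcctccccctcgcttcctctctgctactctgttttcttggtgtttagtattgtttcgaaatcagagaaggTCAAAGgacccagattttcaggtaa
Gimap9: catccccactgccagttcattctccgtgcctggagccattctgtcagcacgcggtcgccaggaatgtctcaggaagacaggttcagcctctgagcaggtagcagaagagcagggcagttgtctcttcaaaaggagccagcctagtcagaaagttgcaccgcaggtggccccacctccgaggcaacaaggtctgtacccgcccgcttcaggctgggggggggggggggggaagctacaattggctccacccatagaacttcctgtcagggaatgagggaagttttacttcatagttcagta
Gimap7: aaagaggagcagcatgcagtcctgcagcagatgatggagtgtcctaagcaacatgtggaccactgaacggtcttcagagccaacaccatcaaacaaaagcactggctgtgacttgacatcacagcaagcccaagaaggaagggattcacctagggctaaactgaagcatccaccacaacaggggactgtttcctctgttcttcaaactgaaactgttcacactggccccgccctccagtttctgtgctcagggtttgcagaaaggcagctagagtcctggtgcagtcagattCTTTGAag
Gimap1: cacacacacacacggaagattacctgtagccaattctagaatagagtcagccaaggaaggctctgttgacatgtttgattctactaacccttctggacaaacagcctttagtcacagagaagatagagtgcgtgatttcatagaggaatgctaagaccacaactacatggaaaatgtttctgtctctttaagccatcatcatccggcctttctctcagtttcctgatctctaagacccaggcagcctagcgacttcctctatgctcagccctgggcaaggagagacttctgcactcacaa

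On either strand, the core CTTTGA was found in the windows of 2 of the 8 members, Gimap4 and Gimap7, and in 16.0% of all 32851 promoter windows of that length. Its first base lies 26 bases into the transcript of Gimap4 and 43 bases into that of Gimap7. The core TGTGGT of RUNX factors, searched on both strands, was in the windows of Gimap4, Gimap7 and Gimap1 and in 16.8% of all windows. The ETS core GGAAGT was in those of Gimap9, Gimap6, Gimap1 and Gimap5 and in 23.8% of all, and the E-box CANNTG in those of 6 members and in 72.3% of all. Each motif was searched on its own, and matches of different motifs may overlap. A match describes these letters in this window and shows no binding.

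The values are log2 signals that the authors normalised with RMA, and arrays had median signals of 5.30 to 5.39. A gene entered the tests if its mean over all arrays reached the 25th percentile of the genes (4.78), which 7 members did. Gimap3, at a mean of 4.24, did not. The other 7 would have reached it on the wild-type arrays alone. Calls were made at a limma adjusted p under 0.05 over 14953 genes. The DN3 and T lineage marker list (13 genes such as Il2ra, Ptcra and the CD3 chains) averaged 8.33 to 8.64 in lymphomas, 8.54 to 8.75 in KO DN3 cells and 8.78 to 8.83 in WT DN3 cells, against 4.65 to 5.01 for 7 B cell markers over all arrays. The arrays were split by 34 unnamed rows, at 6.02 to 6.35 on lymphomas 1 and 2 and replicate 1 of both DN3 groups and at 8.34 to 9.04 on the other 8, a division that the labels do not name. Xist stood at 4.13 to 4.40 on lymphomas 1, 2 and 6 and KO DN3 replicate 3 and at 10.10 or more on all others. The replicates are labelled biological but tied to no named mouse, and each p-value reflects only how these arrays spread.

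Gimap4, a GTPase linked in mice to the pace at which T cells complete apoptosis, had the widest differences of the family in all 3 comparisons. Its signal had a lowest value of 8.12, a median of 8.56 and a highest of 8.90 in the 6 lymphomas. It was 6.83, 6.88 and 6.47 in KO DN3 replicates 1 to 3, against 4.73, 5.37 and 5.34 in WT DN3 replicates 1 to 3. The 3 groups did not overlap: all lymphomas lay above all KO DN3 arrays, and these above all WT DN3 arrays. The difference was 3.40 (SE 0.19) between lymphomas and WT DN3 cells, a 10.6-fold difference. Between KO DN3 and WT DN3 cells it was 1.58 (SE 0.18), or 2.98-fold, and between lymphomas and KO DN3 cells 1.82 (SE 0.17), or 3.54-fold. WT DN3 replicate 1 was the lowest array and lay under the filter of 4.78. The WT DN3 signals were not shown to stand above background, since no background measure was used here, so the folds against WT DN3 cells may be understated. In the 4 arrays with a low level of the unnamed rows the differences were 3.92, 2.09 and 1.83 in that same order, and in the other 8 they were 3.14, 1.32 and 1.82. The low set holds 2 lymphomas but only 1 array of each DN3 group, and the other set 4 lymphomas and 2 of each. Low-set values, here and below, thus rest on a single array of each DN3 group.

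**Figure D1:**
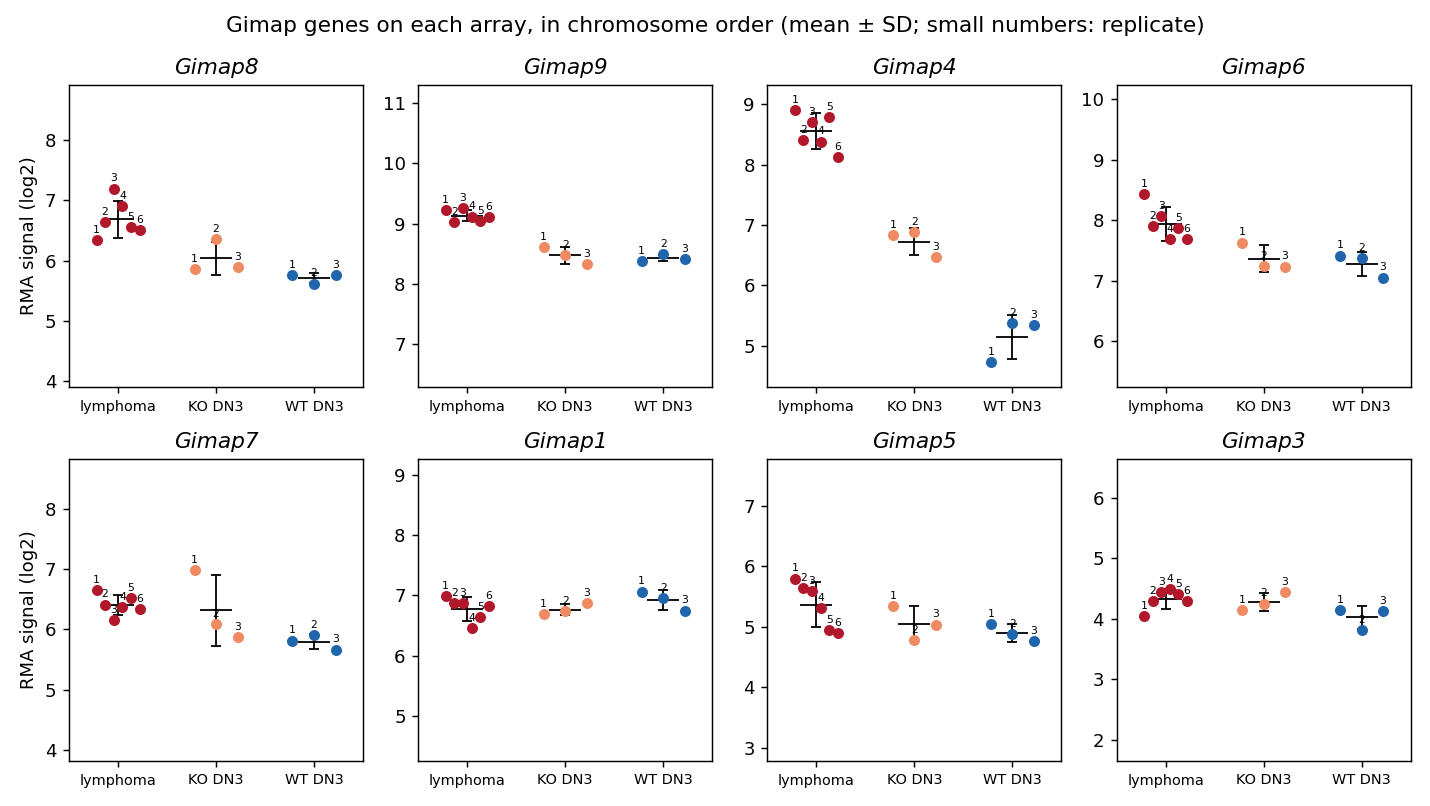
Signal of each Gimap gene (log2, vertical axis, the same span of 5 units in every panel) on each array of the lymphoma (n = 6), KO DN3 (n = 3) and WT DN3 (n = 3) groups; points are arrays with their replicate number, bars are means ± SD. Gimap4 separates the 3 groups, Gimap8, Gimap9, Gimap6 and Gimap7 have every lymphoma above every WT DN3 array, and Gimap1 shows overlapping groups.

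The comparison of lymphomas with WT DN3 cells asked how far the rest of the cluster moved with Gimap4. Of the 6 other members tested, 4 rose (Gimap8, Gimap9, Gimap6 and Gimap7), none fell, and Gimap1 and Gimap5 were not called. Over all genes tested, 2.96% were called higher and 2.86% lower. The same 4 members had every lymphoma above every WT DN3 array, as did 5.28% of all genes tested. The median difference of the 8 members was 0.64, and 0.61 without Gimap4, against -0.01 for all genes tested.

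Gimap8, the member with several GTP-binding domains in 1 protein, ranged in lymphomas over a lowest value of 6.34, a median of 6.59 and a highest of 7.19. WT DN3 replicates 1 to 3 stood at 5.77, 5.62 and 5.76. All lymphomas lay above them, with lymphomas 3 and 4 the highest. Gimap8 rose by 0.97 (SE 0.16, limma adjusted p = 0.00254), or 1.96-fold. Within the arrays with low and with high unnamed rows the differences were 0.72 and 1.10.

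Gimap9, for which no role is given here, was the member with the least spread. Its lymphoma values had a lowest of 9.03, a median of 9.11 and a highest of 9.26, against 8.38, 8.49 and 8.42 in WT DN3 replicates 1 to 3. The groups were 0.53 apart at their nearest arrays. The rise was 0.70 (SE 0.08, limma adjusted p = 0.000216), or 1.63-fold, with 0.74 and 0.68 within the 2 sets of arrays.

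Gimap6, whose human counterpart binds an autophagy protein of the GABARAP family, had a lowest value of 7.69, a median of 7.89 and a highest of 8.43 in lymphomas. Its WT DN3 values were 7.41, 7.36 and 7.05. Lymphoma 1 stood highest, and the nearest arrays of the groups were 0.27 apart. Gimap6 rose by 0.66 (SE 0.16, limma adjusted p = 0.0259), or 1.59-fold, with 0.75 and 0.62 within the sets. The call was lost without any 1 of the 3 WT DN3 arrays and without lymphoma 3, with adjusted p of 0.0592, 0.0763, 0.156 and 0.0501 in that order.

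Gimap7, whose human counterpart stimulates GTP hydrolysis by GIMAP2, had a lowest value of 6.15, a median of 6.39 and a highest of 6.65 in lymphomas, against 5.81, 5.91 and 5.66 in WT DN3 replicates 1 to 3. Every lymphoma was above the WT DN3 arrays. Its rise was 0.61 (SE 0.11, limma adjusted p = 0.00473), or 1.53-fold, with 0.72 and 0.56 within the sets. In 1 fit to all arrays, where the spread of KO DN3 cells enters, the adjusted p was 0.0797.

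Gimap5, the survival factor named above, differed among the lymphomas. They stood at 5.80, 5.64, 5.59, 5.32, 4.95 and 4.90 in order of number, and the WT DN3 arrays at 5.05, 4.88 and 4.77. Lymphomas 1 to 4 lay above all WT DN3 arrays and lymphomas 5 and 6 among them. The difference of 0.47 (SE 0.19, limma adjusted p = 0.244) was not called, and its 95% interval ran over 0.05 to 0.88. Gimap5 had the highest SD of the 8 members in lymphomas, 0.37, against 0.14 in WT DN3 cells.

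Gimap1 was the member that did not lie higher in lymphomas. Its lymphoma values had a lowest of 6.46, a median of 6.84 and a highest of 6.99, and its WT DN3 values were 7.06, 6.95 and 6.75. The groups overlapped, and the difference of -0.15 (SE 0.12, limma adjusted p = 0.701) had a 95% interval of -0.41 to 0.12. That interval ends below the lower ends found for the 4 called members Gimap6, Gimap7, Gimap8 and Gimap9 (0.32, 0.37, 0.63 and 0.52). It overlaps the interval of Gimap5, which starts at 0.05. Those 4 members were set beside Gimap1 because they were called in these same data. Differences between members were not tested. Gimap3, close in sequence to Gimap5 in mice and a pseudogene in humans, stayed dim, at 4.04 to 4.49 in lymphomas and 3.81 to 4.14 in WT DN3 cells. Probe sequences were not used here, so signal shared between such similar genes was not tested.

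**Figure D2:**
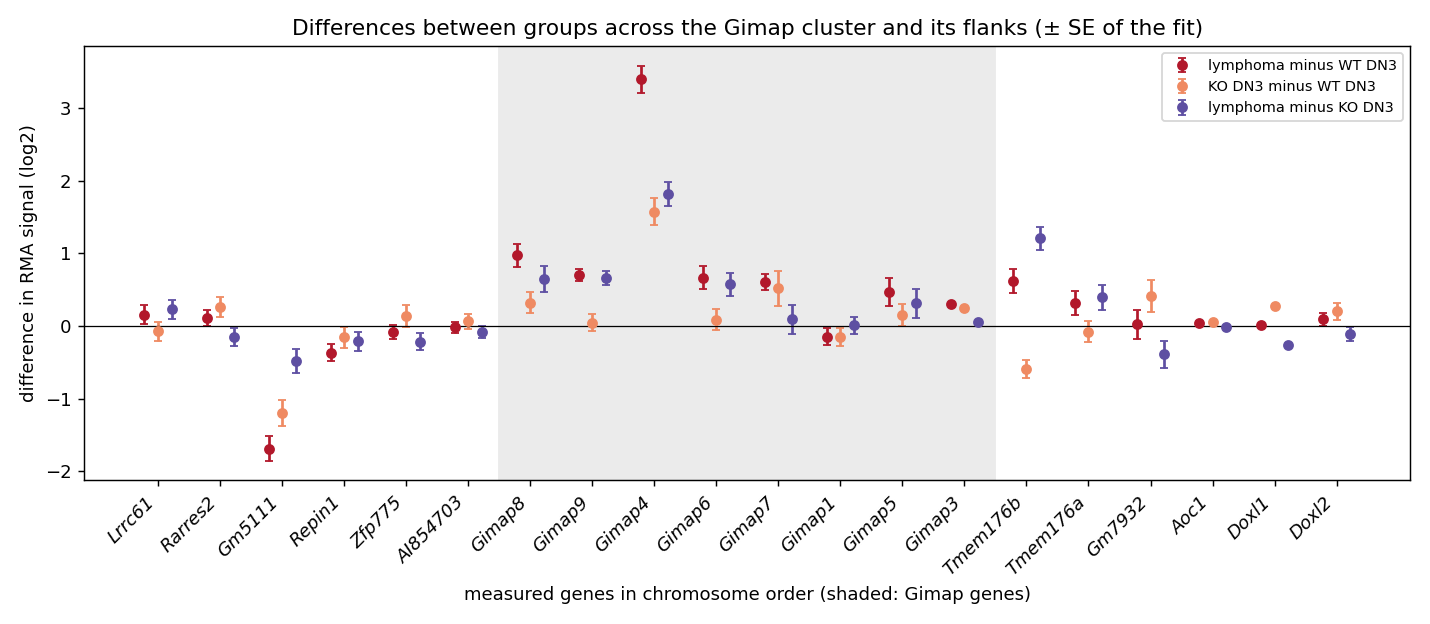
Difference in log2 signal (vertical axis) between groups for the 8 Gimap genes (shaded) and 6 measured genes on each side, in chromosome order; red is lymphoma minus WT DN3, orange KO DN3 minus WT DN3, violet lymphoma minus KO DN3, and bars are the SE of the fit (none for genes below the filter). Gimap4 reaches 3.40 in lymphomas, its neighbours Gimap8, Gimap9, Gimap6 and Gimap7 lie between 0.61 and 0.97, and Gimap1 lies at -0.15.

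The comparison of KO DN3 with WT DN3 cells asked whether the cluster differs between DN3 cells with and without TCF-1. Of the 6 other members tested, limma called 0, where 0.568% of all genes were called higher (85 genes) and 1.42% lower (213 genes). None had an unadjusted limma p under 0.05, but Gimap7 (0.051) and Gimap8 (0.0514) came close to it. After repeated quantile normalisation, 93 of all genes tested were called higher and 146 lower. With the replicate number as a block, since same-numbered arrays deviated together, 0 of the 6 were called as well, while calls over all genes numbered 1380 in place of 298. The lowest adjusted p among the 6 was then 0.0707, for Gimap7. Gimap8 alone of the 6 had all KO DN3 arrays above all WT DN3 arrays, as did 10.4% of the genes tested. The median difference of the 8 members was 0.20, and 0.16 without Gimap4, against 0.03 for all genes tested.

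In KO DN3 replicates 1 to 3 Gimap8 was at 5.86, 6.35 and 5.89, and the nearest KO DN3 and WT DN3 arrays were 0.09 apart. Replicate 2 was the high array. The difference was 0.32 (SE 0.15, limma adjusted p = 0.308, 95% interval -0.00 to 0.64), and without KO DN3 replicate 2 it was 0.16. Gimap7 was at 6.99, 6.08 and 5.87, with replicate 1 high and replicate 3 among the WT DN3 arrays. Its difference of 0.52 (SE 0.24, limma adjusted p = 0.308) had a 95% interval of -0.00 to 1.04. That difference was 1.17 in the replicate 1 arrays, which have low unnamed rows, and 0.19 in the others. Leaving out KO DN3 replicate 1 brought it to 0.18. Gimap9 was at 8.62, 8.48 and 8.33 in KO DN3 cells and Gimap6 at 7.63, 7.23 and 7.23, both overlapping the WT DN3 arrays. Their differences were 0.04 and 0.09, with 95% intervals of -0.22 to 0.31 and -0.24 to 0.42. Gimap1 was at 6.68, 6.74 and 6.87, a difference of -0.16 (95% interval -0.43 to 0.12), and Gimap5 at 5.35, 4.78 and 5.04, a difference of 0.16 (95% interval -0.18 to 0.50). Gimap3 was at 4.14, 4.25 and 4.44.

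The comparison of lymphomas with KO DN3 cells sets side by side groups that both come from TCF-1 KO mice. They differ in disease, age and the cells sorted, whose effects cannot be told apart. Gimap9 rose by 0.66 (SE 0.10, limma adjusted p = 0.00194) and Gimap8 by 0.65 (SE 0.18, limma adjusted p = 0.0495), so 2 of the 6 were called higher and 0 lower, against 4.5% higher and 2.12% lower over all genes. Gimap6 was 0.57 higher (SE 0.16) with a limma adjusted p of 0.0543, above the threshold. It was called in 6 of 19 alternatives, with adjusted p of 0.007 to 0.0469: centring on array medians, the filter at the 50th percentile, 1 fit to all arrays, the replicate block, the array split as a term and leaving out lymphoma 4. The replicate block rests here on lymphomas 1 to 3, since lymphomas 4 to 6 have no same-numbered KO DN3 array. Gimap6 and Gimap9 had every lymphoma above every KO DN3 array, as did 7.34% of the genes tested, while the nearest arrays overlapped by 0.01 for Gimap8. Gimap8 lost its call without KO DN3 replicates 1 or 3 or lymphomas 2, 3, 4, 5 or 6, and in all but the fit without lymphoma 4 the count fell to 1, Gimap9. Among the arrays with high Xist alone, 3 lymphomas against 2 KO DN3 arrays, it was 0, and Gimap9 had an adjusted p of 0.0703. Gimap7, Gimap5 and Gimap1 differed by 0.09, 0.31 and 0.01, with 95% intervals of -0.35 to 0.53, -0.13 to 0.76 and -0.25 to 0.27. The median difference of the 8 members was 0.44, and 0.31 without Gimap4, against -0.03 for all genes tested. The 3 comparisons share arrays, so their values are not independent of each other.

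Array by array, the mean of the 7 members other than Gimap4 lay 0.37 to 0.64 above the WT DN3 mean in the lymphomas and 0.09 to 0.31 above it in KO DN3 cells. With Gimap4 included, the mean of the 8 lay 0.70 to 1.02 above it in the lymphomas and 0.24 to 0.49 above it in KO DN3 cells. Lymphomas 2, 3 and 4 had 7 members above the highest WT DN3 value, and lymphomas 1, 5 and 6 had 6, Gimap4 among them, where 26.1% to 30.7% of all genes tested lay above it. KO DN3 replicates 1, 2 and 3 had 7, 4 and 3, where 36.0%, 27.5% and 34.5% of all genes tested did. Each lymphoma and KO DN3 count includes Gimap4, whose rise was known beforehand. All of them but that of lymphoma 1 also include Gimap3, which failed the filter and is outside those shares. In KO DN3 replicate 1 Gimap3 passed the highest WT DN3 value by 0.002. In replicate 3 the 3 members were Gimap3, Gimap4 and Gimap8. The members did not peak in a single tumour: Gimap4, Gimap6, Gimap7, Gimap5 and Gimap1 were highest in lymphoma 1, Gimap8 and Gimap9 in lymphoma 3, and Gimap3 in lymphoma 4. Lymphoma 1 was at the same time the lowest of the 6 for Gimap8 and for Gimap3.

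**Figure D3:**
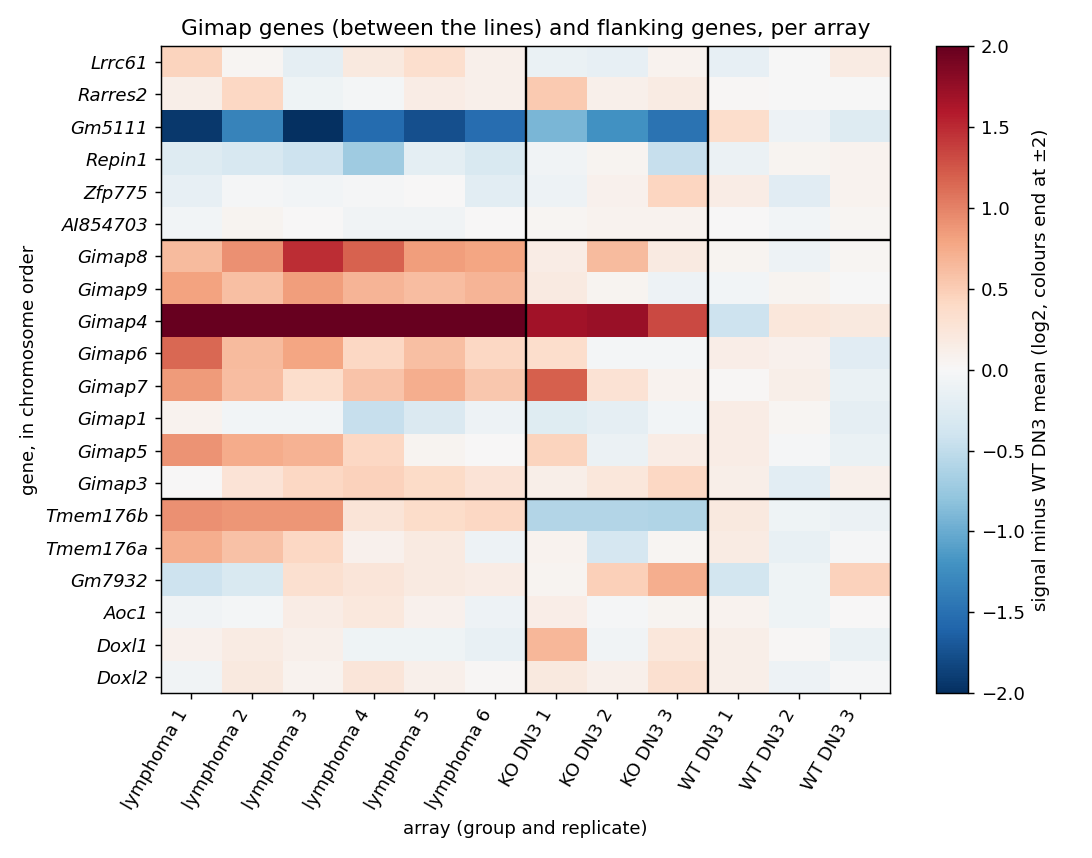
Signal minus the WT DN3 mean (colour, log2, colours end at ±2) for the Gimap genes between the horizontal lines and the flanking genes outside them; columns are the 6 lymphomas, 3 KO DN3 and 3 WT DN3 arrays. Gimap4 is high in all lymphomas and KO DN3 arrays, Gimap8 to Gimap7 are red in all lymphomas with Gimap8 strongest in lymphoma 3, and Gimap5 is red in lymphomas 1 to 4 and near 0 in lymphomas 5 and 6.

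The genes that flank the cluster were read in the same way, 6 measured genes on each side, of which Aoc1 and Doxl1 were below the filter. Of the 10 tested, Tmem176b rose and Gm5111 fell in lymphomas relative to WT DN3 cells, against 2.96% called higher and 2.86% lower over all genes tested. Tmem176b, the membrane protein gene next to Gimap3, had a lowest value of 7.18, a median of 7.58 and a highest of 7.85 in lymphomas, was at 6.35, 6.34 and 6.32 in KO DN3 cells and at 7.13, 6.84 and 6.81 in WT DN3 cells. The KO DN3 arrays were thus the lowest and the lymphomas the highest, an order that no Gimap gene had. It rose by 0.62 (SE 0.16, limma adjusted p = 0.0483) in lymphomas against WT DN3 cells and by 1.21 (SE 0.16, limma adjusted p = 0.00105) against KO DN3 cells, and fell by 0.59 (SE 0.12, limma adjusted p = 0.0359) in KO DN3 against WT DN3 cells. Both calls against WT DN3 cells were lost without any 1 WT DN3 array, that in KO DN3 cells also without any 1 KO DN3 array and that in lymphomas without lymphoma 1, 2, 3 or 6, with adjusted p up to 0.149 and 0.208. Among arrays with high Xist both were lost too (limma adjusted p of 0.138 and 0.122). The KO DN3 call was also lost after repeated quantile normalisation (0.0526) and in 1 fit to all arrays (0.103). With no filter on dim genes the lymphoma call was lost (0.0599). Gm5111, an annotated gene of unstated role on the Gimap8 side, fell by 1.69 (SE 0.17, limma adjusted p = 7.3e-05) in lymphomas and by 1.20 (SE 0.18, limma adjusted p = 0.00858) in KO DN3 cells. Its lowest, median and highest lymphoma values were 4.47, 4.85 and 5.17, against 5.58, 5.30 and 5.03 in KO DN3 and 6.86, 6.41 and 6.24 in WT DN3 replicates 1 to 3, so every WT DN3 array lay above all others. AI854703, Zfp775 and Repin1, the nearest measured genes beside Gimap8, differed by -0.02, -0.08 and -0.37 in lymphomas against WT DN3 cells and were not called.

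Genes that act with GIMAP proteins or resemble them were read from lists chosen with earlier results of these data known. Beside their counts, 2.96% of all genes tested were called higher and 2.86% lower in lymphomas against WT DN3 cells. The shares were 4.5% and 2.12% in lymphomas against KO DN3 cells, and 0.568% and 1.42% in KO DN3 against WT DN3 cells. Of 13 genes of the Bcl-2 family none rose in lymphomas against WT DN3 cells, and Bcl2 fell by 1.13 (SE 0.20, limma adjusted p = 0.00482). Against KO DN3 cells Bcl2 fell by 0.92 (limma adjusted p = 0.0239), a call lost without any 1 KO DN3 array, and in KO DN3 against WT DN3 cells 0 of the 13 were called. The list's median in lymphomas against WT DN3 cells was 0.00. The 5 genes of the Atg8 family, which includes the GABARAP proteins, had no call in any comparison. The guanylate-binding and related GTPases induced by interferon were read as other immune GTPases. Of 7 tested, Gbp8, Gbp4, Gbp9 and Gbp7 fell in lymphomas against WT DN3 cells, with differences of -2.72 for Gbp8 to -1.31 for Gbp7 (limma adjusted p of at most 5.58e-05). None rose. The median of the 7 was -1.31, against -0.01 for all genes tested. The same 4 fell against KO DN3 cells, with differences of -2.21 (Gbp8), -1.25 (Gbp4), -0.89 (Gbp9) and -1.38 (Gbp7). In KO DN3 against WT DN3 cells 1 of the 7 was called, Gbp4, with a difference of -0.75 (limma adjusted p = 0.0255). That call was lost without any 1 WT DN3 array or KO DN3 replicate 3. With the replicate block Gbp8 (-0.51, limma adjusted p = 0.0186) and Gbp9 (-0.48, limma adjusted p = 0.0124) were called lower as well.

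The lists of maturing T cells were likewise chosen with earlier results known. Of 14 genes of egress and late T cell maturation, 5 rose in lymphomas against WT DN3 cells (Ccr4, Cd5, Cd27, Cd28 and Cd6). Il7r fell and 8 were not called, with a median of 0.39, where 2.96% of all genes tested were called higher and 2.86% lower. In KO DN3 cells Ccr4 and Cd5 rose, Ccr9 and Il7r fell and 10 were not called, with a median of 0.29. The shares over all genes there were 0.568% higher and 1.42% lower. Of the 9 markers of DP and single positive T cells, some of them also in that list, 4 rose in lymphomas (Itm2a, Cd5, Cd8b1 and Cd6) and 3 in KO DN3 cells (Cd8b1, Cd8a and Cd5) against WT DN3 cells, none fell, and their mean signal was 6.36 to 6.81 in lymphomas, 6.36 to 6.43 in KO DN3 cells and 5.78 to 5.85 in WT DN3 cells. In lymphomas against KO DN3 cells, where Gimap8 and Gimap9 rose, 1 of these 9 rose (Itm2a) with a median of -0.01. Of the 14 egress and maturation genes 3 rose (Ccr4, Cd28 and Ccr9) with a median of 0.08, where 4.5% of all genes were called higher and 2.12% lower. The part of T cell maturation in the Gimap differences was not tested. In bulk samples, more cells of a type and more RNA per cell cannot be told apart. Endothelium, which also expresses Gimap genes, had 10 markers with a mean of 5.24 to 5.34 in lymphomas, 5.31 to 5.39 in KO DN3 cells and 5.24 to 5.32 in WT DN3 cells. None of the 7 tested was called in lymphomas or KO DN3 cells against WT DN3 cells, and Pecam1 rose in lymphomas against KO DN3 cells.

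The genes outside the family whose levels ran most like the mean profile of the 8 members over the 12 arrays were Slamf6, a SLAM-family receptor of lymphocytes, Fgf13, Dennd6a, the metalloproteinase inhibitor gene Timp2, Arhgef3, the growth factor receptor gene Pdgfrb, the calcium-dependent kinase gene Camk2d and the sialyltransferase gene St3gal2. The measure of likeness, Pearson's r over 12 arrays, was 0.97 for Slamf6 and 0.95 for St3gal2, the closest and the last of the 8 genes. Members were centred but not scaled, so Gimap4, with the widest differences, weighs most in that profile. The arrays share their groups, and with group means subtracted r ran over 0.26 (Dennd6a) to 0.76 (Fgf13). Slamf6 averaged 8.87 in lymphomas, 8.03 in KO DN3 cells and 7.58 in WT DN3 cells. Of these 8 genes, 3 remained among the closest 8 without WT DN3 replicate 3 or without lymphoma 3, and 5 without KO DN3 replicate 3 or lymphoma 6.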

How the data were processed

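RNA from sorted cells was amplified and labelled with biotin before hybridisation, per the labels' protocols. The authors deposited a log2 signal for each transcript cluster, and the submitters' processing notes name Partek and RMA. Neither versions nor settings are stated in those notes, and the log base was taken from the range of the values. RMA gives the arrays a common distribution, so differences are relative to other genes.

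Of 35556 rows, 21789 had 1 symbol in the platform annotation, and the row with the highest mean stood for each of 19938 genes. The 4985 genes under the 25th percentile were left out. Each comparison was fitted to its 2 groups with limma 3.58.1 (R 4.3.3; lmFit and eBayes, two-sided), with Benjamini-Hochberg adjustment over 14953 genes, and the fit was tested on simulated data. The targeted gene's own signal is not reported here. The members and lists were chosen with earlier results of these data known. Genes named are the 8 members, 6 flanking genes a side, the 8 genes of highest likeness and up to 4 genes of each list with the lowest p; some further called list genes are named after their values were seen. Same-numbered KO DN3 and WT DN3 arrays deviated together from their group means (r of 0.51, 0.42 and 0.25). The numbers were taken to pair them only in the alternative with the replicate block. The main fit has no block, so its SEs, intervals and adjusted p leave any pairing out. Alternatives covered scaling, filters, rows per gene, the variance model, the arrays fitted, the block, the split of arrays, Xist and each array left out. The alternatives for Gm5111, Tmem176b, Gbp4, Gbp7, Gbp8, Gbp9 and Bcl2 were added after seeing the data. The first pair also shares the set of arrays with low unnamed rows. WT DN3 replicate 1 had r of 0.44 and 0.45 with lymphomas 1 and 2, which are in that set too. For lymphomas not all r with same-numbered DN3 arrays were positive (-0.22 and -0.26 for number 2).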

Additional observations from a re-analysis of the deposited data

How the results depend on the processing

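Counts of Gimap genes called, Gimap4 aside, were recomputed with other scaling, filters, row summaries, variance models and subsets of arrays. For KO DN3 against WT DN3 cells the count was 0 in all 16 alternatives, and for lymphomas against WT DN3 cells it was 3 to 5 in all 19. For lymphomas against KO DN3 cells it was 1 after repeated quantile normalisation and with no filter on dim genes, 0 among arrays with high Xist only and 1 to 2 with an array left out. It was 3 with median-centred arrays, the filter at the 50th percentile, 1 fit to all arrays, the replicate block and the array split as a term. The median difference of the members was 0.10 to 0.27, 0.55 to 0.76 and 0.34 to 0.65 over the alternatives of the 3 comparisons, in the order KO DN3 against WT DN3, lymphomas against WT DN3 and lymphomas against KO DN3. The 0.76 and the 0.65 came with the replicate block, as did the count of 5. In the lymphoma comparisons that block rests on lymphomas 1 to 3, since lymphomas 4 to 6 have no same-numbered DN3 array. The block called Gimap5 in both lymphoma comparisons (limma adjusted p of 0.00304 against WT DN3 and 0.025 against KO DN3). Gimap5 was lower in each of lymphomas 4 to 6, which it leaves out, than in lymphomas 1 to 3. The labels do not state that lymphoma numbers pair with DN3 numbers. Against KO DN3 the block called Gimap6 and lost Gimap8, and it changed no Gimap call between KO DN3 and WT DN3 cells. Over all genes, calls between KO DN3 and WT DN3 cells numbered 298, against 1380 with the replicate block, 754 with the array split as a term, 126 among arrays with high Xist and 57 to 443 with an array left out. Between lymphomas and WT DN3 cells they numbered 871, against 560 to 872 with an array left out. Between lymphomas and KO DN3 cells they numbered 990, against 1702 with the split, 265 among arrays with high Xist and 431 to 1361 with an array left out. Of the 8 genes most like the family profile, 3 to 7 remained with an array left out. The alternatives are not all separate checks. Between KO DN3 and WT DN3 cells, arrays with high Xist only and leaving out KO DN3 replicate 3 give the same fit. Averaging rows left the members' values unchanged, since each has a single row.

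Signs turned only for small differences that were not called. Between KO DN3 and WT DN3 cells these were Gimap6 (-0.042 to 0.16 with an array left out), Gimap9 (-0.027 to 0.12) and Gbp7 (-0.039 to 0.13). Between lymphomas and KO DN3 cells, Gimap1 turned to -0.10 after repeated quantile normalisation, -0.053 among arrays with high Xist only, and -0.031 to 0.075 with an array left out. Gimap7 turned to -0.19 among arrays with high Xist only, and ran over -0.13 to 0.43 with an array left out. The cause was not tested. With 3 arrays in each DN3 group, the number of arrays limits the precision.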

Other observations

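Marker lists of other lymphocytes, chosen with earlier results known, were read in lymphomas against WT DN3 cells. In that comparison 2.96% of all genes tested were called higher and 2.86% lower. Of 8 gamma-delta T cell markers, Icos, Etv5 and Cd163l1 rose in lymphomas against WT DN3 cells and none fell, and the mean of the list was 6.19 to 7.11 in lymphomas, 6.00 to 6.11 in KO DN3 cells and 5.68 to 5.79 in WT DN3 cells. Of 6 NK and innate lymphoid markers tested, Id2, Il2rb and Gzma rose and Nkg7 fell in that comparison. Of the 13 DN3 and T lineage markers Dtx1 rose and Dntt, Rag1, Rag2 and Cd3g fell. Of 4 B cell markers tested Cd79b fell, of 10 thymic epithelium and stroma markers Epcam fell, and none of 8 myeloid and dendritic or 4 erythroid markers was called. The part of these cell types in the Gimap values was not tested.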
